A study of Homo sapiens with 2 samples.

Results

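Kinesins are motor proteins that walk along or take apart microtubules, and centromere proteins (CENPs) build the chromosomal platform to which spindle microtubules attach. In dividing cells a group of mitotic kinesins separates the spindle poles, aligns chromosomes and completes cytokinesis, while transport kinesins carry organelles and vesicles in all phases of the cell cycle. Most mitotic kinesins and several CENP genes are transcribed mainly in G2 and mitosis, so their mRNA level is known to follow the share of cycling cells.

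The probes examined were those in the authors' deposited table whose gene symbol is KIF followed by a digit, or CENP followed by a single letter. They numbered 59 of the 20291 probes in that table and stood for 43 genes. Of them 35 probes read 26 kinesin genes and 24 probes read 17 centromere protein genes. A further 2 probes, of CENPBD1, fall outside this definition. The labels give both samples as HCT116, a human colorectal carcinoma line of epithelial origin, transfected with Lipofectamine and either a miR-204-5p mimic, a synthetic copy of that microRNA, or a negative control (NC), and harvested after 48 h. Each condition was measured on 1 single-colour Agilent array, so every value below describes 1 mimic array and 1 control array, and no difference has a replicate check or a test. The mature microRNA supplied by the mimic is shown because its seed, bases 2 to 8 in capitals, defines the transcripts it can pair with (RefSeq, GRCh38.p14).

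hsa-miR-204-5p: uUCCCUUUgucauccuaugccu

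Values are scaled intensities: each array was divided by its 75th percentile over 34127 non-control probes, which was 1364 with the mimic against 894 in the control before scaling. Median negative-control signals were 5.59 on the mimic array against 3.60 on the control array. Differences are log2 intensity, mimic minus control. As a guide to technical spread, replicate spots of the same probe gave that difference with a median SD of 0.064 (788 table probes with at least 8 spots). In bulk RNA, fewer cells of a type and less RNA per cell cannot be told apart.

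One feature of the deposited files bears on the lower members. At 1366 table probes (6.73%) the raw mimic intensity is the product of the control intensity and the fold listed in the authors' deposited table, to a relative tolerance of 1e-06. These probes are called recomputed here. In the authors' deposited table every fold below 0.5 is marked Down (highest 0.4999, 1367 probes) and every other probe is marked Up (lowest 0.5053), and all 1366 recomputed probes are among those marked Down. Among kinesins and centromere proteins 7 of 59 probes were recomputed: both probes of KIF20B and the probes of KIF11, KIF14, KIF3C, KIF27 and CENPE. For these the mimic array gives no measurement separate from the deposited fold, and the scaling takes a further 0.61 log2 off that fold. All spots of the other 52 probes carried mimic values equal to 1.2 times a number of 7 significant digits, as did 93.3% of table probes. Scaling removes this constant for the 52 probes. The spots of the 7 recomputed probes did not all carry it, so scaling can take it off where it is absent. Its part in the 0.61 log2 was not separated.

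The arrays also differ in markers of cell identity. Of 12 measured epithelial markers 8 exceeded the control by 1.5-fold or more and 0 were lower, with summed intensities of 260819 with the mimic against 45186 in the control. E-cadherin (CDH1), a defining epithelial marker, was near background on the control array, at 11324 against 36.6, and EPCAM was at 65569 against 608. Of 6 measured mesenchymal markers 6 were lower, 4 of them with a recomputed probe, with sums of 10512 on the mimic array against 211899 on the control array. The mesenchymal filament gene VIM was at 1279 on the mimic array, from a recomputed probe, against 163210 on the control array. Of 5 fibroblast markers 2 were higher and 3 lower, of 4 neuronal markers 2 were higher and 1 lower, and of 4 blood markers 1 was higher and 1 lower. On the control array the levels of CDH1, EPCAM and VIM go against those of an epithelial line. Other epithelial markers were bright there, with KRT18 at 22142 and CLDN4 at 13611. KRT20, GRHL2, LGALS4 and CDX1 were low on both arrays. Whether both arrays hold RNA of the same line was not tested. An effect of the mimic and any difference between the cells of the 2 samples cannot be told apart in the values below, and the part of the marker difference in them was not tested.

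Mitotic kinesins had a lower median on the mimic array than all table probes. Of 14 probes, standing for 10 genes, 8 (57.1%) lay below the control by 1.5-fold or more and 2 (14.3%), both of KIF22, lay above it by as much. Among all table probes 24.7% were lower and 23% higher by that much. The median difference of the mitotic kinesins was -0.93, against -0.07 over all table probes. Of the 8 lower probes 4 were recomputed. Without the recomputed probes, which removes lower probes by construction, 4 of 10 mitotic probes were lower, 2 were higher and the median was 0.02. The same removal left 18925 table probes. Of these, 19.31% lay below the control by 1.5-fold or more and 24.66% above it, and their median difference was -0.002.

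KIF11, also called Eg5, is the bipolar motor that pushes spindle poles apart. It was at 1407 on the mimic array against 4356 on the control array, a difference of -1.63 or 3.10-fold lower. The probe lies on chromosome 10 from 94414627 to 94414686 by the coordinates of the file, which name no genome build. It was recomputed, and the fold in the authors' deposited table is 0.493, just inside the limit for a Down mark. KIF15, a second bipolar motor that can share the work of KIF11, was at 1478 with the mimic against 3258 in the control, or 2.20-fold lower. Its probe was not recomputed, so both motors of spindle bipolarity were lower, 1 of them on its own signal.

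KIF18A, which dampens chromosome oscillation at the metaphase plate, was at 2057 with the mimic against 5400.5 in the control, a difference of -1.39, also from a probe that was not recomputed. Other motors act in the midzone and in cytokinesis. KIF23, the motor subunit of centralspindlin at the spindle midzone, had 5419 on the mimic array against 11045 on the control array at 1 probe and 749.8 against 1335 at the other. Both KIF23 probes were lower, by 1.03 and 0.83 on the log2 scale, and neither was recomputed.

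KIF14, which acts with the kinase CIT at the midbody, was at 902 with the mimic against 3142 in the control (chromosome 1, 200521324 to 200521383). KIF20B, a midzone motor of late cytokinesis, was at 219 against 1059 at 1 probe and 132 against 464 at the other. These are differences of -1.80 for KIF14 and of -2.27 and -1.81 for KIF20B, all 3 from recomputed probes. KIF20A is the motor that brings the chromosomal passenger complex to the midzone, and was at 1314 with the mimic against 1577 in the control. Its 10 spots gave differences between -0.33 and -0.20, with a mean of -0.26 and an SD of 0.051 that covers spot error only. KIF20A was within 1.5-fold, and its difference was 0.335 with the authors' deposited normalized values, so no direction can be given for it.

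Of the remaining mitotic kinesins only KIF22 passed 1.5-fold. KIF22, a chromosome-arm motor (chromokinesin), was at 1883 with the mimic against 1084.5 in the control at 1 probe and at 2068 against 1173 at the other. The 2 KIF22 probes gave 0.80 and 0.82, so they agreed closely. KIF4A, the other chromokinesin measured, was at 1472 against 1192 and at 406 against 290.2, differences of 0.30 and 0.48. KIF2C (MCAK), which depolymerises microtubules at centromeres, was at 7523 with the mimic against 6107 in the control, a difference of 0.30. KIF4A and KIF2C were within 1.5-fold and inside the middle 50% of all table probes, and none of these probes was recomputed.

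**Figure D1:**
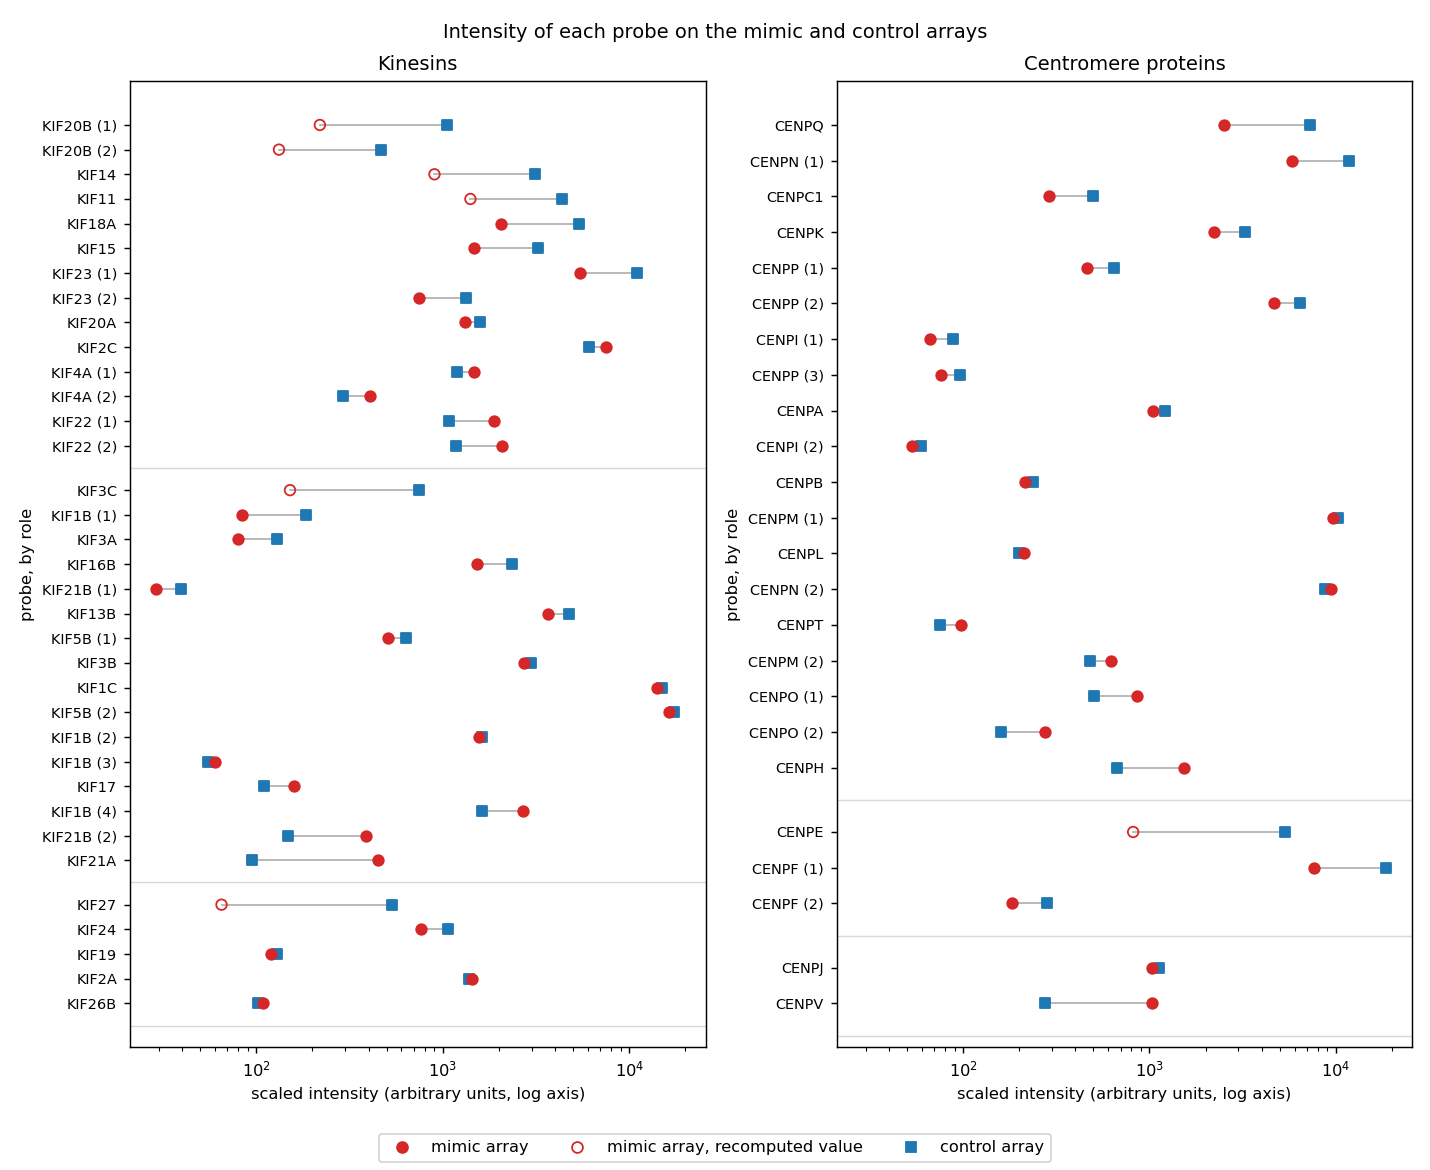
Scaled intensity (log axis, arbitrary units) of every kinesin and centromere protein probe on the mimic array (red circles, open where recomputed) and the control array (blue squares), grouped by role, with several probes of a gene numbered. The upper mitotic kinesin probes, from KIF20B to KIF20A, have the mimic value left of the control value, and KIF2C, KIF4A and KIF22 have it on the right.

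Transport kinesins, which carry cargo outside cell division, lay around the middle of all probes. Of 16 probes of 11 genes, 4 (25%) lay below the control by 1.5-fold or more and 3 above it, and their median difference was -0.11. The median of the mitotic kinesins was lower than that of the transport kinesins by 0.82 on the log2 scale, and without the recomputed probes it was higher by 0.12. That removal takes out 4 lower mitotic probes and 1 lower transport probe by construction, since all recomputed probes are marked Down, so the second value shows nothing about which class was lower.

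The conventional kinesin heavy chain KIF5B, which carries mitochondria and vesicles, was at 16352 against 17310 at 1 probe and at 511 against 634 at the other. KIF1C, a vesicle motor, was at 14028 with the mimic against 15012 in the control, and KIF3B, a subunit of the heterotrimeric kinesin-2 that builds cilia, was at 2717 against 2961. These probes differed by at most 0.31 on the log2 scale. KIF13B and KIF17 were also within 1.5-fold, at -0.38 and 0.53.

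At the table probes the kinesin-2 subunits differed among themselves. KIF3A, the partner of KIF3B, was at 79.9 with the mimic against 128 in the control, a difference of -0.68. KIF3C, another subunit that pairs with KIF3A, was at 152 against 748, a difference of -2.30 from a recomputed probe. A further KIF3C probe, outside the authors' table, was at 28.15 with the mimic against 27.69 in the control, a difference of 0.02. That probe was dim, at 6.22 and 6.23 times the negative-control median before scaling. KIF16B, which moves early endosomes, was at 1521 against 2358, a difference of -0.63.

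The transport kinesin furthest above the control was KIF21A, a kinesin-4 motor that restrains microtubule growth at the cell cortex. Its placement among the transport kinesins, like that of KIF21B, was a choice, and no other placement was tried. KIF21A was at 452 with the mimic against 95.2 in the control, or 4.74-fold higher. Its 10 spots lay between 2.13 and 2.33, with an SD of 0.072, and the control value before scaling was 21.4 times the negative-control median. The probe lies on chromosome 12 from 39688150 to 39688210 by the coordinates of the file.

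KIF21B, the paralog of KIF21A, was at 385 against 149 at 1 probe but at 29.0 against 39.3 at the other, whose control value before scaling was 8.85 times the negative-control median. KIF1B, an axonal motor for mitochondria and synaptic vesicle precursors with several isoforms, had 4 probes that gave -1.14, -0.05, 0.12 and 0.73. The highest was at 2693 with the mimic against 1627 in the control (chromosome 1, 10441250 to 10441309) and the lowest at 83.4 against 184 (10366262 to 10366321). No single direction can be given for KIF1B or KIF21B.

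Of the 5 other kinesins, KIF2A, KIF19, KIF24 and KIF26B were within 1.5-fold. KIF2A is a microtubule depolymerase of spindle poles and of neurons and was at 1442 with the mimic against 1379 in the control. KIF27, which is related to the Hedgehog pathway kinesin KIF7, was at 65.1 against 536, a difference of -3.04 from a recomputed probe.

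**Figure D2:**
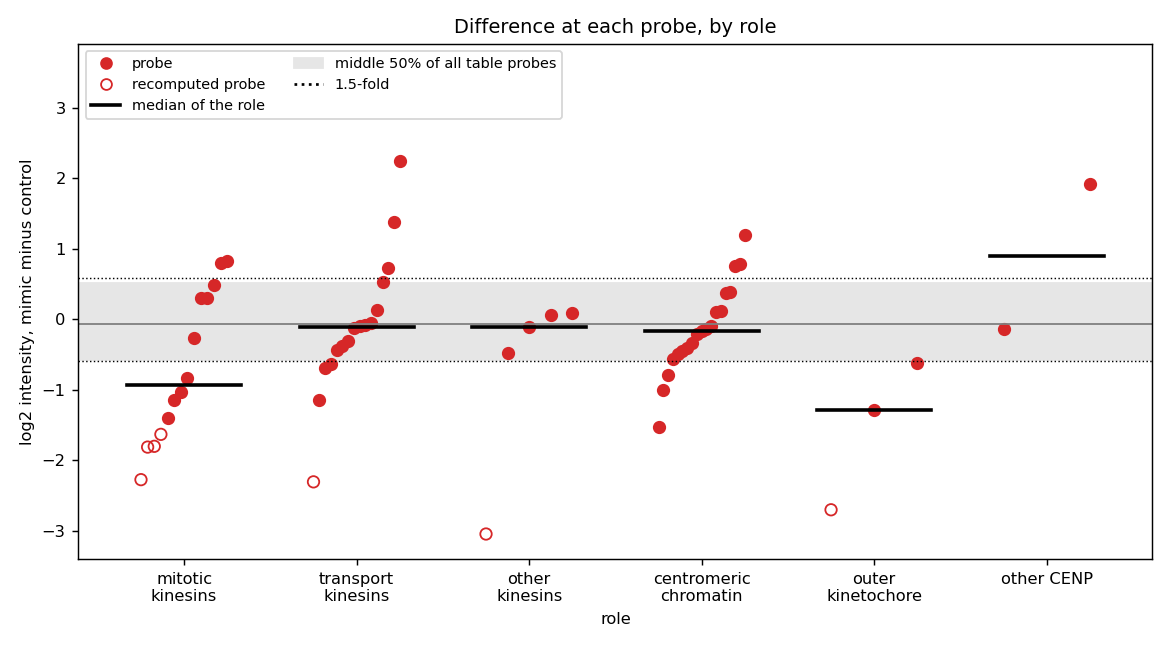
Difference in log2 intensity, mimic minus control, at each probe by role (open circles are recomputed probes, thick bars are medians of the role, the grey band and line are the middle 50% and the median of all table probes, dotted lines mark 1.5-fold). Mitotic kinesins have a median of -0.93 and reach from -2.27 to 0.82, and transport kinesins have a median of -0.11.

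Centromere proteins as a whole lay near the background share, with 6 of 24 probes (25%) below the control by 1.5-fold or more and 4 above it. Their median was -0.19. Their parts differed. The outer kinetochore proteins CENPE and CENPF, which appear on kinetochores only around mitosis, were lower at all 3 probes. CENPE is itself a kinesin, the plus-end motor that brings chromosomes to the metaphase plate. It was at 817 with the mimic against 5307 in the control, 6.49-fold lower, from a recomputed probe (chromosome 4, 104027339 to 104027398) whose fold in the authors' deposited table is 0.233. The 10 spots of CENPE gave an SD of 0.024, against 0.048 to 0.072 for the other 4 members with 10 spots, none of which was recomputed. CENPF, a large protein of the nuclear matrix and the outer kinetochore, was at 7619 against 18632 at 1 probe and 183 against 282 at the other, differences of -1.29 and -0.62, neither of them recomputed.

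The proteins of centromeric chromatin and of the constitutive network on it were closer to the control. Of 19 probes of 13 genes, 3 lay below the control by 1.5-fold or more, 3 above it and 13 were within 1.5-fold. None was recomputed. CENPA, the histone H3 variant that marks the centromere, was at 1049 with the mimic against 1211 in the control, and CENPB, which binds a box in alpha-satellite DNA, was at 216 against 238. These defining proteins of the centromere therefore differed by -0.21 and -0.14, inside the middle 50% of all table probes (-0.58 to 0.52). With the authors' deposited normalized values they differed by 0.38 and 0.40, so no direction can be given for either.

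Within the network the members lay on both sides of the control. CENPH was at 1534 with the mimic against 668 in the control, 2.30-fold higher, with 10 spots between 1.10 and 1.30. CENPO was at 853 against 506 and at 275 against 160, differences of 0.75 and 0.79. CENPQ, which belongs to the same subcomplex as CENPO, was at 2526 with the mimic against 7288 in the control, 2.89-fold lower, with 10 spots between -1.59 and -1.44. The probes of CENPO and CENPQ thus lay on opposite sides of the control, each by more than its spread between spots or probes.

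CENPK, which binds CENPH, was at 2219 with the mimic against 3266 in the control, a difference of -0.56. CENPI, another partner of CENPH, was at -0.40 and -0.17, and the 3 CENPP probes lay between -0.49 and -0.34. CENPL was at 213 against 199 and CENPT, which links the network to the outer kinetochore, at 97.4 against 75.3, and both were within 1.5-fold. CENPM, with probes at 9669 against 10282 and 625 against 479, gave -0.09 and 0.39. CENPN, which reads the CENPA nucleosome, was at 9469 against 8705 at 1 probe and at 5840 on the mimic array against 11732 on the control array at the other, so its probes differed by 1.13 log2 and in direction. The probe named CENPC1 (CENPC in RefSeq, the scaffold of the network) was at 289 against 500.4. The file places it on chromosome 12, whereas the gene is on chromosome 4. It was the 1 member of 53 with coordinates for which the chromosomes disagreed, and whether it reads CENPC was not tested.

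A pair of further CENP names do not belong to the constitutive network. CENPV, which was named for its part in centromere organisation, was at 1037 with the mimic against 275 in the control, 3.77-fold higher (1.91 on the log2 scale). CENPJ, now named CPAP in RefSeq, is a centriole elongation factor and was at 1032 against 1131.

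**Figure D3:**
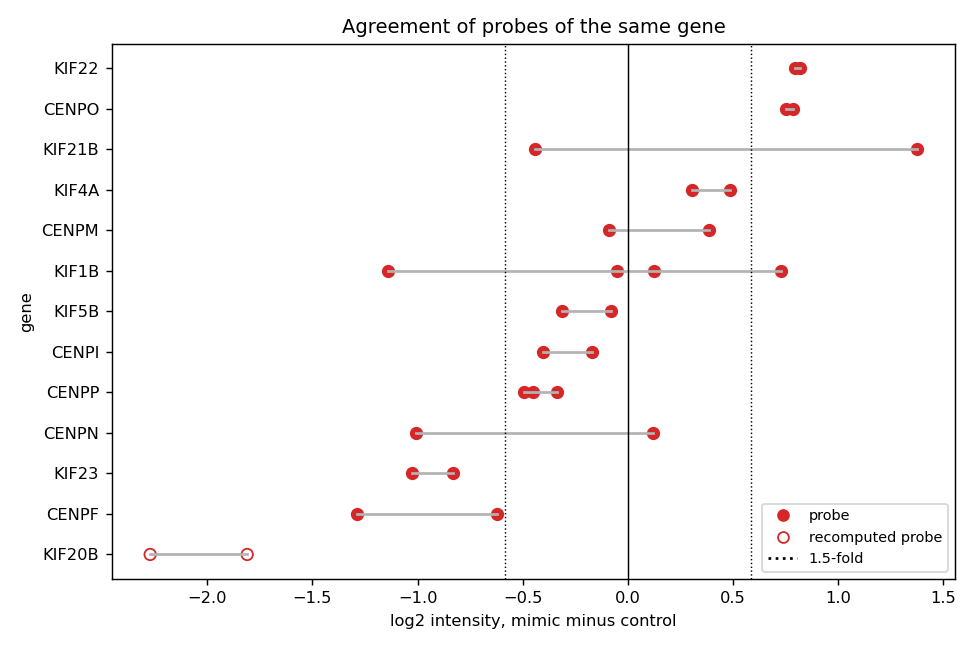
Difference in log2 intensity, mimic minus control, for each probe of the 13 genes with more than 1 probe (open circles are recomputed probes, dotted lines mark 1.5-fold). The probes of KIF22, CENPO and KIF23 agree, and those of KIF1B, KIF21B, CENPN and CENPM lie on both sides of 0.

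The direction of the calls depends on the centre chosen for the arrays. With the log2 normalized values of the authors' deposited table, whose median difference over all probes was 0.57, 5 mitotic kinesin probes were lower by that much and 5 higher, beside 10.9% lower and 49.1% higher among all table probes. Transport kinesins then had 1 lower and 7 higher probes, and centromere proteins 2 lower and 10 higher. Several members with small negative differences changed sign, among them CENPK (0.11), CENPP (0.19), CENPI (0.43) and KIF13B (0.31), as means of their probes. No direction can be given for these. At 2-fold, 6.74% of all probes were lower and 30.2% higher with the deposited values, and of the 59 kinesin and centromere protein probes 7 were lower and 13 higher. Of all 1.5-fold differences among table probes, 48.2% were towards higher values with the 75th percentile and 81.8% with the deposited values. Relative to all table probes the mitotic kinesins had a median of -0.86 with either, a value in which a shift of the centre cancels.

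The promoters of the members were examined for a sequence shared by genes of late cell cycle phases. The cell cycle genes homology region, bound by the DREAM and MuvB complexes, was searched as TTTGAA or TTCGAA on both strands, in the RefSeq window from 250 bases before to 50 bases after the gene start (GRCh38.p14). A window was present for 35 of the 43 genes. It held the motif in 8 of 10 mitotic kinesin genes, 1 of 9 transport kinesin genes and 5 of 14 centromere protein genes, beside 16.4% of all 35116 promoters and 15.9% of the 11166 table genes with a promoter. CCAAT on either strand, the letters read by NF-Y, was in 8 of 10 mitotic kinesin, 3 of 9 transport kinesin and 7 of 14 centromere protein genes, beside 34.6% of all promoters and 42.8% of table genes.

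The mitotic kinesins with the motif were KIF11, KIF14, KIF15, KIF18A, KIF20B and KIF23, which were lower on the mimic array, and also KIF4A and KIF22, which were not. For KIF11, KIF14 and KIF20B the lower value rests on recomputed probes only. Whether the motif bears on the differences was not tested. The windows of KIF20A, KIF2C and CENPE did not hold these letters. The stretches of 30 bases below are shown because they let motors with lower values and motors without be compared at the same motif, with the motif in capitals. All are on the plus strand except KIF5B, the transport kinesin shown for contrast, which is on the minus strand.

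KIF11, chr10:92593090-92593119: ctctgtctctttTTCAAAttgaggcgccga
KIF15, chr3:44761747-44761776: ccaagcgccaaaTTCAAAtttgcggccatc
KIF23, chr15:69414282-69414311: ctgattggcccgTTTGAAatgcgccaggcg
KIF4A, chrX:70290058-70290087: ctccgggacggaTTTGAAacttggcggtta
KIF22, chr16:29790712-29790741: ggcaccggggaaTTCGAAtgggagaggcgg
KIF5B, chr10:32056548-32056577: agtgcagtaaaaTTTGAAtctgcgaccccg

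In the mitotic kinesins shown the printed motif starts 27 to 55 bases before the gene start, and in KIF5B 140 bases before it. In the mitotic kinesins not shown the match begins 10 bases before the start in KIF18A, 1 base after it in KIF14, and 24 and 30 bases after it in KIF20B. A match in these windows is a description and not a measured binding site.

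Across the 17 centromere protein genes the longer genes tended to be lower. Spearman's rho between the gene's genomic span in RefSeq and its mean difference was -0.64. It was -0.06 over 14245 table genes, -0.09 over the 26 kinesin genes and -0.33 over all 43 member genes. Pearson's r with the log10 of the span was smaller in size for the 17 centromere protein genes, at -0.448, and -0.057 over the table genes. The 17 genes include CENPE, from a recomputed probe, and CENPC, whose probe the file places on another chromosome. These are correlations across genes that share the same pair of arrays, and genes are not independent replicates.

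Genes that work with the members were described from lists of partners, with the probes of a gene averaged. Among all 14900 table genes 24.7% lay below the control by 1.5-fold or more and 23.5% above it. The kinetochore core, which holds the microtubule, had 3 of 12 genes lower and 6 higher with a median of 0.55. SKA1, of the complex that tracks shortening microtubules, was at 2684 with the mimic against 897 in the control, and PMF1, of the MIS12 complex, at 1599 against 589. KNL1, the checkpoint scaffold, was at 52.9 against 159 and NUF2, of the NDC80 complex, at 3384 against 6184. No gene of this list had a recomputed probe.

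Centromere assembly genes with other names had 4 of 9 lower and 2 higher. HJURP, the chaperone of CENPA, was at 10152 with the mimic against 18065 in the control, CENPU at 3719 against 8288 and CENPW at 4457 against 8584. CENPU and CENPW belong to the same network as the CENP members above, and both were lower, by 1.16 and 0.95 on the log2 scale, from probes that were not recomputed. Other network genes of the list lay on the other side, with CENPX at 0.82 and ITGB3BP at 0.70, and CENPS was within 1.5-fold at 0.16. CENPX, ITGB3BP and CENPS were named after their values were seen.

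Genes of the spindle checkpoint had 4 of 10 lower and 1 higher, with a median of -0.52. SPDL1, which brings dynein to kinetochores, was at 1603 with the mimic against 4604 in the control, MAD1L1 at 348 against 965, ZWILCH at 2916 against 6021 and the kinase TTK at 1290 against 2413. None of these was recomputed.

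The chromosomal passenger genes were split. The kinase AURKB was at 583 with the mimic against 160 in the control and its partner BIRC5 (survivin) at 23337 against 11998. The cohesion protectors SGO2, at 1079 against 2309, and SGO1, at 206 against 379, were lower, although the SGO1 probes gave -1.64 (recomputed) and -0.11.

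Spindle and cytokinesis partners had 5 of 13 lower and 1 higher. DLGAP5, a spindle stabiliser, was at 3955 with the mimic against 18061 in the control, and ASPM, of spindle poles, at 2103 against 9050, both from recomputed probes. AURKA was at 2263 against 4184 and NUMA1, the dynein anchor of spindle poles, at 399 against 198.

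Genes of the mitotic cell cycle had 5 of 15 lower and 2 higher, with a median of -0.30 and no recomputed probe. TOP2A was at 1912 with the mimic against 5108 in the control, PTTG1 (securin) at 20240 against 46486, UBE2C at 40835 against 82703, and LIN9, a MuvB subunit, at 504 against 882. The LIN9 probes gave -1.14 and -0.47, so 1 of them was within 1.5-fold. The 2 higher genes were CCNA2 at 0.76 and CDC20 at 0.68 on the log2 scale. MKI67, a general marker of cycling cells, was at 344 against 396, with probes at -0.48 and 0.08, and FOXM1 differed by -0.05.

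Among partners of transport, dynein and dynactin genes had 6 of 18 lower and 3 higher. NDE1 was at 139 with the mimic against 439 in the control with 1 recomputed probe of 2, the dynein heavy chain DYNC1H1 at 27500 against 59919, DYNC1LI1 at 2149 against 4186 and DYNLT3 at 1268 against 683. Of the 6 measured light chain, KIFAP3 and KIFC genes 2 were lower and 2 higher. The kinesin light chain gene KLC3 was at 1389 with the mimic against 92.5 in the control, and the minus-end motor gene KIFC2 at 1473 against 392. KIFC3, of epithelial junctions, was at 197 against 506 and the kinesin-2 adaptor KIFAP3 at 2463 against 4465.

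**Figure D4:**
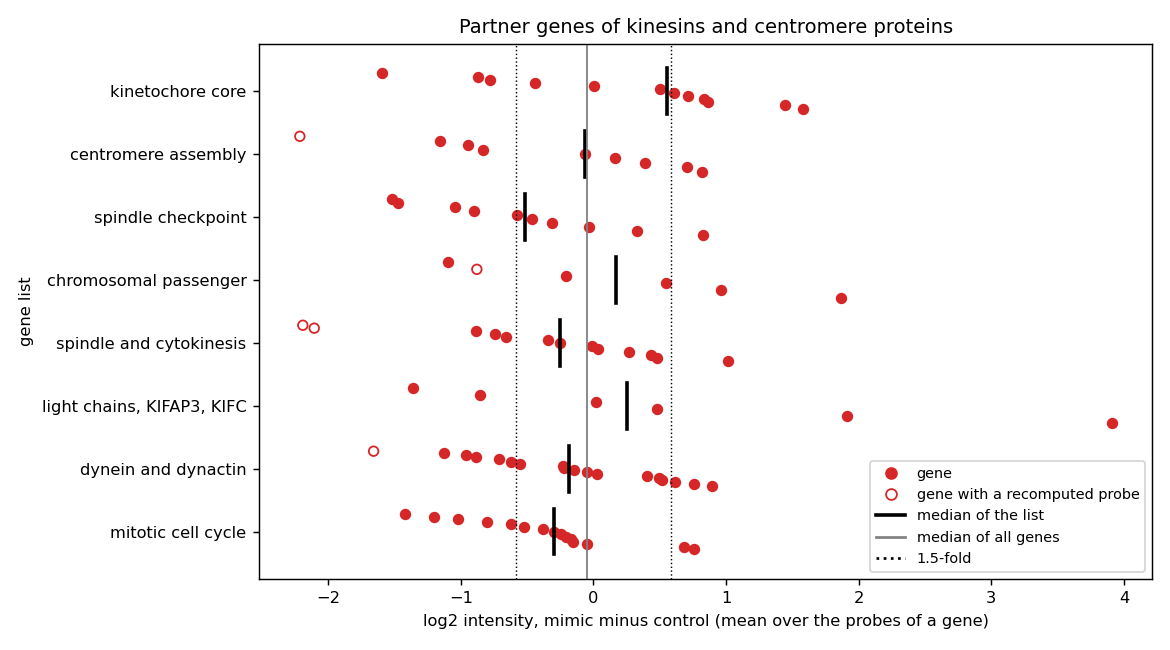
Difference in log2 intensity, mimic minus control, for each partner gene by list (open circles have a recomputed probe, thick bars are medians of the list, the grey line is the median of all genes, dotted lines mark 1.5-fold). The kinetochore core has a median of 0.55 and the spindle checkpoint one of -0.52, and every list holds genes on both sides.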

How the data were processed

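Cy3-labelled RNA of 1 mimic and 1 control sample was hybridised to single-colour Agilent arrays, per the labels' protocols, and Agilent Feature Extraction 9.1 produced the signals (named in the submitters' processing notes). Each deposited raw file lists linear spot intensity. At recomputed member probes with 1 spot the mimic value there is the control intensity times the deposited fold, so it depends on both arrays. The authors' deposited table adds log2 normalized intensities and a fold, the ratio of mimic over control, per the file headers, for probes detected in 5 of 5 samples, of which 2 are in the table. The sources used here name neither the normalization method nor the genome build.

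Spots of a probe were averaged as log2 intensity and each array was centred on its 75th percentile over non-control probes. For printing, values were returned to the intensity scale with the geometric mean of the 2 percentiles. No detection flag per array was used, so membership in the table stood for detection. Genes were named through Entrez identifiers from RefSeq on GRCh38.p14.

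A single array per group permits no test. Members past 1.5-fold were counted beside the same count over all table probes. Members, roles of kinesins and partner lists were chosen with earlier results of these data known. Values were given for each gene with a probe at least 2-fold different, for genes whose probes differ in direction, for the members nearest to no difference in each class, for others by their role, and for the 4 genes of each partner list with the largest difference, of which 1 gene is not reported here. FOXM1, MKI67, CCNA2 and CDC20 fall outside that rule and were chosen after their values were seen. Alternatives used limma 3.58.1 in R 4.3.3. The scaling was tested on simulated data with few changed probes, as many raised as lowered, and no recomputed values. That setting differs from these arrays, so the test cannot show which centre suits them.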

Additional observations from a re-analysis of the deposited data

Results flagged for a closer look

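A signal in probes outside the authors' table, which the comparisons do not use, was seen at 3 kinesin genes named through their RefSeq accession. Of 17 such probes of 15 kinesin and centromere protein genes, 12 were under 10 times the negative-control median on both arrays. KIF26A, an atypical kinesin, was at 524.9 with the mimic against 23.2 in the control, KIF5C, a neuronal heavy chain, at 388.8 against 19.1, and KIF9, a kinesin of motile cilia, at 73.1 against 17.2. Each passed 10 times the negative-control median with the mimic and stayed below that in the control. In the other direction KIF7, a regulator of Hedgehog signalling, was at 4.49 on the mimic array, which is the negative-control level, and 99.8 on the control array. KIF5A was at 46.3 against 73.9 and was the only other of these probes that passed 10 times on either array.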

How the results depend on the processing

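No paired analysis was possible because each group has 1 array. With 1 array per group the spread between replicates is not known, so the precision of these values cannot be given. Medians are given relative to all table probes (mitotic kinesins -0.86, transport kinesins -0.04, centromere proteins -0.12, mitotic minus transport -0.82), and counts at 1.5-fold are 8 lower and 2 higher, 4 and 3, and 6 and 4. Centring on the median, the 75th percentile over the table, quantile and cyclic loess normalization, the raw columns of the table, a constant of 32, and the deposited fold at recomputed probes (chosen after the data were examined) left the mitotic median between -0.91 and -0.86, mitotic minus transport between -0.84 and -0.80 and these counts within 1.5 times. A change of centre alone cancels in the mitotic median relative to all table probes and in mitotic minus transport. Centring on the median or on the 75th percentile over the table could therefore change only the counts, and the raw columns nearly so. The deposited normalized values gave 5 lower and 5 higher mitotic, 1 and 7 transport and 2 and 10 centromere protein probes. Without recomputed probes the mitotic median turned to 0.021 with 4 lower probes, and mitotic minus transport to 0.12, since this leaves out lower probes by construction. Mitotic minus transport was -0.75 with normexp (mitotic median -0.76), -0.73 in the brighter part of the probes, -0.91 with gene means, -0.99 with the brightest probe of a gene and -0.72 with KIF2A as mitotic. The mitotic median was -0.98 with gene means, -1.02 with the brightest probe and -0.765 with KIF2A, with 1 higher gene in each of the first pair, and gene means left 1 higher transport gene. In the brighter part transport had 1 lower and 1 higher probe and centromere proteins a median of -0.30 and 2 higher probes. At 2-fold 7 and 0 mitotic, 2 and 2 transport and 4 and 2 centromere protein probes were lower and higher. Among all table probes the shares at 2-fold were 14.2% and 13.2%. At 3-fold 4 and 0 mitotic, 1 and 1 transport and 1 and 1 centromere protein probes were lower and higher. The share of all table probes at 3-fold was not computed. As means of their probes, 19 of 43 member genes were past 1.5-fold, beside 24.7% lower and 23.5% higher among all table genes. All 19 kept their sign under each of 9 settings, and 13 stayed past 1.5-fold with the deposited normalized values, 18 or 19 with the others. The 19 were chosen for passing 1.5-fold at the main setting, so a kept sign was nearly fixed in advance. With the deposited values KIF16B and KIF3A kept it only at -0.017 and -0.066.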
